A study of Mus musculus with 23 samples.

Results

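Heat shock proteins and chaperones are described here in mouse bone marrow-derived macrophages (BMDMs) responding to lipopolysaccharide (LPS), a bacterial cell wall component that activates these cells. The members were chosen by gene name alone: the Hsp families, the J proteins named Dnaja, Dnajb or Dnajc, the subunits of the CCT ring, the protein disulfide isomerases named Pdia, the Bag proteins, calreticulin (Calr) and calnexin (Canx), without Hspa5, Hsp90b1 and Dnajb9. The rule found 55 of the 6397 genes in the deposited expression table. BMDMs came from young adult C57BL/6 mice and were grown out of bone marrow in medium with L929 supplement. They were left at 0 h without LPS or were collected at 1, 2, 4 and 6 h of LPS at 100 ng/ml. Replicates A and B were taken at each time, which makes 10 cultures. Cells of each culture were divided between RNA-seq of total RNA depleted of ribosomal RNA and ribosome profiling (Ribo-seq), so the RNA and the ribosome-protected fragments (RPFs) of a culture come from the same cells. CLIP-seq, which maps where a protein touches RNA, was made at 4 h of LPS with an antibody to the V5 tag in BMDMs of Zfp36-V5 knock-in mice. It is a pooled peak list of 2 CLIP libraries over 1 input. Levels are RPKM, read counts scaled by gene length and by the size of the library. A series of values is given as replicate A/replicate B with its time in parentheses. Apparent translation efficiency (TE) divides the RPF RPKM of a culture by its RNA RPKM.

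Chaperones bind unfolded or partly folded proteins and let them fold, cross membranes or be degraded. Hsp70 proteins do this in cycles of ATP hydrolysis that J proteins start and that Bag, Hspbp1 and Hsp110 proteins end by exchanging the nucleotide, while Hsp90 finishes the folding of kinases and receptors and the CCT ring encloses actin and tubulin. Mitochondria hold their own Hsp70 and the Hsp60 barrel with its Hsp10 lid, and the endoplasmic reticulum (ER) holds lectin chaperones and disulfide isomerases for secreted and membrane proteins. Heat shock factor drives many cytosolic and mitochondrial members through inverted repeats of GAA in their promoters, and the unfolded protein response drives ER members. The 55 members were placed by textbook location: 11 J proteins of cytosol and nucleus, 2 J proteins of vesicles and endosomes, 5 Hsp70 and Hsp110 proteins, 5 regulators of Hsp70 (4 Bag proteins and Hspbp1), 2 Hsp90 proteins, 8 CCT subunits, 8 mitochondrial members, 5 Pdia and lectin chaperones of the ER and 9 Hsp70 and J proteins of the ER.

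Promoters of 45 members, in 57 windows of 250 bases before to 50 after a RefSeq start (build GRCm38.p6), were searched for the elements of these 2 responses. The heat shock element was taken as 3 alternating units of GAA and TTC, starting with either, with NN (any 2 bases) between neighbours, which reads the same elements on both strands. It was found at 4 members, Hspe1, Hspd1, Dnajb6 and Hsph1, and in 0.603% of 32851 promoter windows of all genes. Hspe1 and Hspd1, which encode Hsp10 and Hsp60, start back to back and share 1 stretch, at chr1:55088054-55088081, where 2 overlapping copies run on. The stretches are shown because these genes are followed in the results. The matched units are in capitals, read on the strand of each gene:

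Hspe1, 89 bases before the start: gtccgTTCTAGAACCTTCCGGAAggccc

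Hspd1, the same bases on the other strand: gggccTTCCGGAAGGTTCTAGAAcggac

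Dnajb6, chr5:29735847-29735869, plus strand, 46 bases before a start: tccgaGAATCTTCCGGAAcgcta

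Hsph1, chr5:149636283-149636305, minus strand, 16 bases after a start: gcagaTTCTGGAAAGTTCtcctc

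The ER stress element, CCAAT and CCACG with any 9 bases between them, on either strand, was found at 4 members and in 0.119% of the promoter windows of all genes. All 4 are ER members, shown because the ER groups are set beside the cytosolic ones in the results. The whole element is in capitals:

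Calr, chr8:84847070-84847098, minus strand, 162 bases before the start: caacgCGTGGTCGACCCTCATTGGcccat

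Canx, chr11:50325795-50325823, minus strand, 145 bases before a start: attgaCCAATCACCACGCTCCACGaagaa

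Pdia6, chr12:17266486-17266514, plus strand, 98 bases before a start: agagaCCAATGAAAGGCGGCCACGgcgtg

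Dnajc3, chr14:118937822-118937850, plus strand, 105 bases before a start: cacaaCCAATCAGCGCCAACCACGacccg

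A match describes these letters only, and the data hold no measurement of a factor at these sites. The members with the heat shock element did not all move in 1 direction in RNA, where Dnajb6 alone rose. The RNA changes on the log2 scale at 6 h of LPS against 0 h were -1.22 for Hspe1, -0.80 for Hspd1 and 0.97 for Dnajb6. Hsph1 was below the filter for RNA and stood lower at 6 h than at 0 h in RNA and RPF (values are given with the Hsp70 and Hsp110 proteins). The rise of Dnajb6 was not called in RPF.

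The labelled cell type was checked first. All 8 macrophage markers looked for (among them Csf1r, Adgre1 and Cd14) were in the table, with 8304.5 to 13908 RPKM in sum over a library, and 0 of the 18 markers of neutrophils, lymphocytes, erythroid and dendritic cells were in it. Only 1 of 4 fibroblast markers was, at 0.36 to 1.36 RPKM. The table holds 6397 genes, and a gene without a row has no value here. A missing marker is therefore not shown to be unexpressed, and the check could not show that other cell types were absent. In bulk samples, fewer cells expressing a gene and less RNA per cell cannot be told apart. The RPKM of low genes step in whole reads in Ribo-seq (81.0 to 90.2% of low values within 0.06 reads), which puts 547000 to 3460000 reads behind the scale of a library. The fewest lay behind replicate A at 6 h, and replicates A and B differed most at 1 h (SD over genes of 0.94 on the log2 scale, against 0.35 to 0.70 at the other times). RNA-seq values showed no such steps, so the depth of these libraries is unknown. Their replicates differed by an SD of 0.16 to 0.23. Nothing in the labels says that A and B are separate animals, so p-values measure the spread between these samples.

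Falls in chaperone RNA outnumbered rises after LPS, as they did among all genes, and the members' share of falls was below that of all genes at 1, 2 and 4 h and near it at 6 h. With a filter of a mean of 10 RPKM over the 10 libraries of an assay, 48 members could be tested for RNA, 49 for RPF and 46 for TE. Changes were called with limma on log2(RPKM + 1) at a Benjamini-Hochberg adjusted p under 0.05 over all genes tested, and the log2 changes given are on that scale, which understates the change of low genes. RNA rose for 2 members and fell for 3 at 1 h against 0 h, where 7.72% of all genes were called higher and 9.12% lower. With each library centred on its median, 3 rose and 3 fell at 1 h (9.24% and 5.99% of all genes). RNA rose for 3 and fell for 15 at 2 h (all genes 15.7% and 37.7%), rose for 6 and fell for 19 at 4 h (24.3% and 51.7%), and rose for 7 and fell for 27 of 48 at 6 h (26.1% and 54.9%). The rises at 4 and 6 h include Dnajc1, which passed the filter only through its libraries of those times. The median log2 change over the tested members was -0.17, -0.22, -0.20 and -0.36 at 1, 2, 4 and 6 h, beside -0.15, -0.22, -0.33 and -0.41 over all genes. Of the calls at 6 h, 5 of the 7 rises and 20 of the 27 falls held with each library left out in turn. The median RNA change of the members was -0.15 at 2 h without replicate A at 2 h, and -0.14 at 1 h without replicate B at 1 h. Falls called at 1 and 2 h depended on single libraries, among all genes as among the members. Only later RNA changes are therefore described in full.

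Fewer changes were called in footprints than in RNA. RPF changed for 0 of 49 members at 1 and at 2 h by limma (2 and 8 at an unadjusted p under 0.05, as for 14.9% and 26.8% of all genes). The median RPF change of the members at these times was -0.19 and -0.20. For all genes, 2.94% and 5.65% were called higher and 0.322% and 4.85% lower. At 4 h it rose for 1 and fell for 7 members (11.7% and 23.5% of all genes), and at 6 h it rose for 4 and fell for 13 (12.8% and 36.0%). The median RPF change of the members was -0.26 at 4 h and -0.48 at 6 h, beside -0.50 and -0.66 over all genes. Centring each library on its median moved the all-gene median up by 0.32 at 4 h and 0.52 at 6 h for RPF, and by 0.22 for RNA at 6 h and at most 0.10 before. The members' RPF calls then became 5 higher and 2 lower at 4 h (14.9% and 13% of all genes) and 6 higher and 5 lower at 6 h (19.0% and 17.9%), and the RNA calls at 6 h 8 higher and 19 lower (32.9% and 46.2%). Without replicate B at 1 h and replicate A at 6 h together, the median RPF change of the members was -0.26 at 4 h and -0.45 at 6 h. With 1 Ribo-seq library left out at a time, the calls at 4 h were 2, 4, 3 and 1 lower without 0 h A, 0 h B, 4 h A and 4 h B, and 3 higher and 11 lower without either 1 h library. Of all genes, 10.1 to 13.9% were called lower in the first 4 of these fits and 30% in the last. At 6 h they were 6, 4, 8, 8 and 6 lower without 0 h A, 0 h B, 4 h A, 4 h B and 6 h B, with 1 higher without 0 h B, 6 h A or 6 h B. Of all genes, 21.8 to 30.9% were called lower in the fits with fewer falls. Without 1 h A, 1 rise and 6 falls were called at 1 h (5.02% and 11.6% of all genes), and without either 1 h library 1 rise and 5 falls at 2 h (7.05 to 7.07% and 8.32 to 8.38%). The libraries that decide a single RPF call, and its value or call with centring, are given beside it.

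In RNA, the interval from 2 to 4 h held the most calls, among the members as among all genes. Between adjacent times, RNA rose for 1 and fell for 4 of 48 members from 1 to 2 h (12.2% and 10.7% of all genes). It rose for 7 and fell for 11 from 2 to 4 h (23.2% and 34.2%) and rose for 3 and fell for 8 from 4 to 6 h (14.5% and 26.5%). The rises from 2 to 4 h were Dnaja1, Dnaja2, Dnajb6, Dnajc7, Dnajc13, Dnajc1 and Cct3, which are 6 J proteins and 1 CCT subunit. The falls were Dnajb4, Dnajb14, Dnajc2, Dnajc5, Dnajc9, Dnajc10, Dnajc15, Dnajc19, Dnajc24, Hspa14 and Hspe1. All of these but Hspa14 and Hspe1 are J proteins too. J proteins made up most calls in both directions, but they were also the largest family among the tested members. An excess over their share of those members was not tested. RPF gave 1 rise and 1 fall of 49 from 2 to 4 h (8.0% and 8.26% of all genes), Dnaja2 and Dnajb4, and 1 fall from 4 to 6 h (3.05%), Dnajc9. That Dnajc9 fall was lost without 2 h A, 2 h B, 4 h A, 4 h B, 6 h A or 6 h B (adjusted p of 0.0576 to 0.328) and with centring, at -1.78 (adjusted p = 0.0517).

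**Figure D1:**
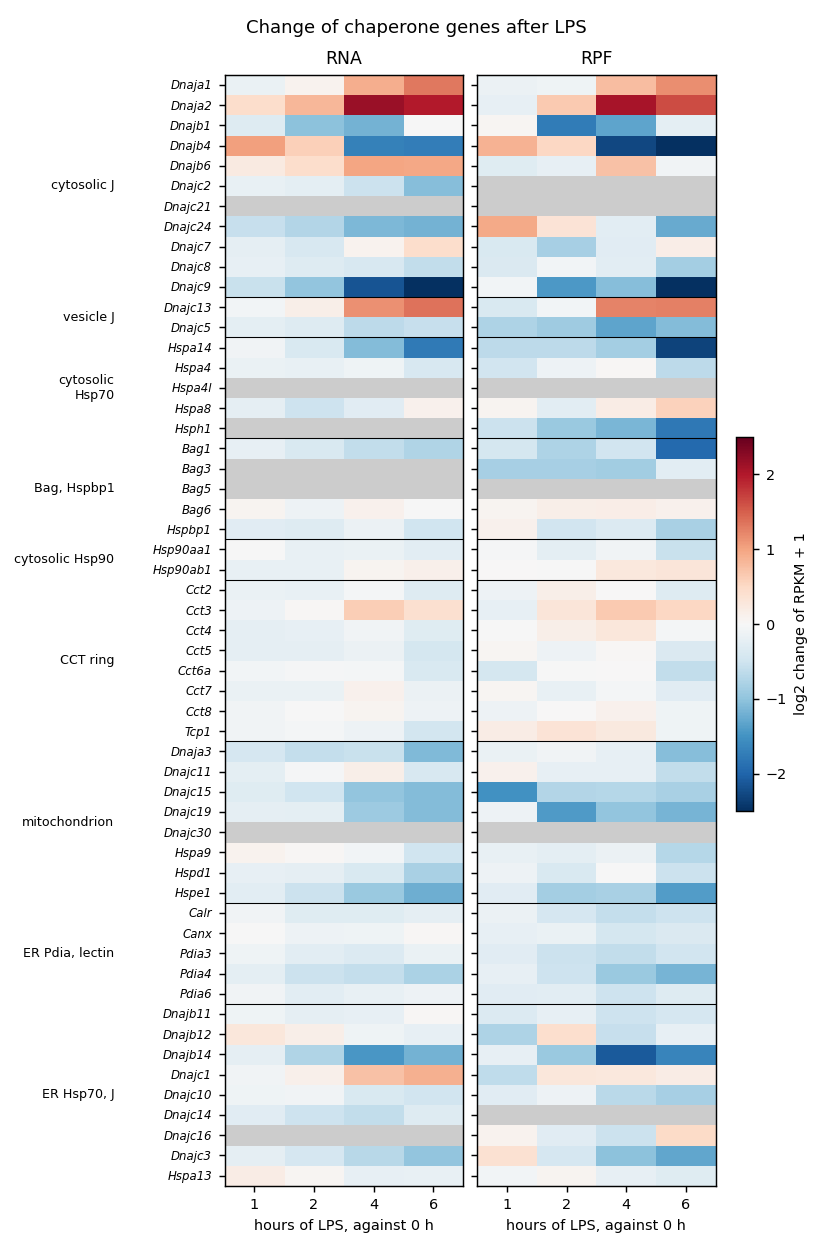
Log2 change of RNA (left) and RPF (right) against 0 h for the members tested in either assay and those tested in neither, in rows by compartment, at 1, 2, 4 and 6 h of LPS. Red is higher and blue lower than at 0 h, and grey marks a member below the filter. The strongest colours in both panels are among the cytosolic J proteins, with Dnaja2 red and Dnajb4 and Dnajc9 blue at 6 h.

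The counts by compartment that follow stand beside the shares of all genes called. In RNA these were 24.3% higher and 51.7% lower at 4 h, and 26.1% and 54.9% at 6 h. In RPF they were 11.7% and 23.5% at 4 h, and 12.8% and 36.0% at 6 h. The J proteins of cytosol and nucleus held the widest range of changes. Of 10 tested for RNA, 4 rose and 5 fell at 6 h against 0 h, from -2.91 for Dnajc9 to 1.98 for Dnaja2, and of 9 tested for RPF, 2 rose and 2 fell. Their median change at 6 h was -0.31 for RNA and -0.25 for RPF, and the RPF median turned to 0.27 when libraries were centred.

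Dnaja2 (chr8:85537633-85555361, minus strand) encodes a class A J protein that hands unfolded substrates to Hsp70. Its RNA was 40.7/47.6 RPKM (0 h), 58.98/60.5 (1 h), 74.3/84.95 (2 h), 184/216 (4 h) and 176/179 (6 h), so every library with LPS lay above both 0 h libraries. The RNA change against 0 h was 2.15 (SE 0.12, adjusted p = 2.2e-10) at 4 h and 1.98 (SE 0.12) at 6 h. Its RPF was 105/103 RPKM (0 h), 127/62.9 (1 h), 164/163 (2 h), 405/472 (4 h) and 374/282 (6 h), and both 4 h and both 6 h libraries lay above every earlier library. RPF changed by 2.07 (SE 0.30, adjusted p = 0.000524) at 4 h and 1.64 (SE 0.30, adjusted p = 0.00157) at 6 h (2.39 and 2.15 with centring, both called). Dnaja2 was the 1 member whose RPF rise held with each library left out. Most of the change came between 2 and 4 h, at 1.32 (SE 0.12) for RNA and 1.42 (SE 0.30) for RPF, the RPF step being lost without 2 h A, 2 h B, 4 h A or 4 h B (adjusted p of 0.0512 to 0.0931) and 1.52 (adjusted p = 0.00537) with centring. The early RNA rise of 0.43 at 1 h was lost without 0 h A, 1 h A or 1 h B (adjusted p of 0.0721 to 0.175).

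Dnaja1 (chr4:40722468-40734965, plus strand), another class A J protein, was first called higher in RNA at 4 h. Its RNA was 24.2/20.2 RPKM (0 h), 22.4/16.97 (1 h), 23.03/23.98 (2 h), 43.3/41.9 (4 h) and 60.7/52.7 (6 h), with the 4 and 6 h libraries above all others. The RNA change was 0.92 (SE 0.14) at 4 h and 1.32 (SE 0.14, adjusted p = 2.27e-07) at 6 h. RPF stood at 62.8 and 70.6 RPKM at 6 h, against 36.6 and 23.6 RPKM at 0 h, a change of 1.15 (SE 0.34, adjusted p = 0.0191) that was lost without 0 h B, 6 h A or 6 h B (adjusted p of 0.0526 to 0.129) and was 1.67 (adjusted p = 0.00254) with centring. RefSeq names 1 related sequence of Dnaja1. The paper gives a quality cutoff for counted reads, and its effect on reads shared with that sequence was not checked.

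Dnajb6 (chr5:29735898-29786478, plus strand), which holds aggregation-prone proteins in solution and carries the heat shock element shown above, had RNA of 22.4/26.3 RPKM (0 h), 30.5/26.7 (1 h), 31.9/34.9 (2 h), 47.7/50.1 (4 h) and 49.6/47.5 (6 h). Every library with LPS lay above both 0 h libraries, and the RNA change was 0.98 (SE 0.12) at 4 h and 0.97 (SE 0.12, adjusted p = 1.3e-06) at 6 h. Footprints gave no such call at 6 h. RPF was at 32.8 and 25.4 RPKM at 6 h, against 39.8 and 23.8 RPKM at 0 h, a change of -0.09 (SE 0.44) that was not called (adjusted p = 0.877). Dnajb6 also has 1 related sequence in RefSeq. Dnajc7, whose tetratricopeptide repeats bind both Hsp70 and Hsp90, fell at 2 h, with a change of -0.40 (SE 0.13, adjusted p = 0.0163), a call lost without 0 h B or 2 h A (adjusted p of 0.109 to 0.125). It rose at 6 h by 0.44 (SE 0.13, adjusted p = 0.00508), a call lost without 0 h A (adjusted p = 0.0608).

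Dnajb4 (chr3:152181580-152210432, minus strand), a class B J protein, went up first and then far down. Its RNA was 19.9/20.3 RPKM (0 h), 40.9/43.1 (1 h), 30.7/31.05 (2 h), 4.60/6.73 (4 h) and 5.56/5.14 (6 h), with the 1 and 2 h libraries above, and the 4 and 6 h libraries below, both 0 h libraries. RNA changed by 1.03 (SE 0.14, adjusted p = 3.46e-05) at 1 h, 0.59 (SE 0.14) at 2 h, -1.68 (SE 0.14, adjusted p = 1.63e-08) at 4 h and -1.73 (SE 0.14) at 6 h. RPF was 46.8/39.1 RPKM (0 h), 77.6/80.6 (1 h), 65.8/57.5 (2 h), 6.24/10.4 (4 h) and 5.39/5.01 (6 h), with the same separation of times. The RPF change was -2.27 (SE 0.34, adjusted p = 0.00063) at 4 h and -2.82 (SE 0.34, adjusted p = 0.000109) at 6 h. Between 2 and 4 h alone, RNA changed by -2.28 (SE 0.14) and RPF by -2.78 (SE 0.34, adjusted p = 0.000484), and all of these held with each library left out and with centring.

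Dnajb1, the classical stress-induced Hsp40, dipped and came back. Its RNA was 34.1/32.7 RPKM (0 h), 27.4/25.9 (1 h), 14.7/16.9 (2 h), 12.1/16.4 (4 h) and 32.1/34.4 (6 h), so the 2 and 4 h libraries lay below all others and the 6 h libraries were beside those at 0 h. The RNA change was -1.03 (SE 0.13) at 2 h, -1.18 (SE 0.13, adjusted p = 8.38e-07) at 4 h, and no change was called at 6 h (adjusted p = 0.975). From 4 to 6 h it rose by 1.18 (SE 0.13, adjusted p = 5.24e-06). RPF ran through 72.1/45.4 RPKM (0 h), 40.1/87.9 (1 h), 28.98/9.15 (2 h), 21.1/23.7 (4 h) and 42.9/53.6 (6 h) and passed no test, with -1.32 (SE 0.53) at 4 h (adjusted p = 0.0791).

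Dnajc9 (chr14:20384638-20388910, minus strand), a nuclear J protein that works with histones, had the lowest RNA change of the group at 6 h. Its RNA was 50.1/50.9 RPKM (0 h), 35.4/32.3 (1 h), 22.5/28.02 (2 h), 9.79/11.3 (4 h) and 5.60/6.11 (6 h), each pair lower than the pair before it. The change was -0.98 (SE 0.12) at 2 h, -2.16 (SE 0.12, adjusted p = 2.52e-10) at 4 h and -2.91 (SE 0.12, adjusted p = 5.13e-12) at 6 h. The 1 h change of -0.56 (SE 0.12) was lost without 1 h B (adjusted p = 0.0639). RPF was 4.69 and 6.04 RPKM at 6 h, against 77.1 and 33.9 RPKM at 0 h, a change of -3.04 (SE 0.46, adjusted p = 0.000538) that held with each library left out and at -2.53 (adjusted p = 0.0016) with centring. These values stand for 2 and 12 reads at 6 h and 77 and 61 reads at 0 h. Dnajc24, which takes part in diphthamide synthesis, fell in RNA, with a change of -1.12 (SE 0.13) at 4 h and -1.19 (SE 0.13, adjusted p = 5.57e-07) at 6 h. It had 8.10 and 8.57 RPKM at 6 h and 19.9 and 20.6 RPKM at 0 h. Dnajc2, which in human cells sits on ribosomes with Hspa14, fell in RNA, with a change of -1.06 (SE 0.11) at 6 h and was below the filter for RPF.

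The 2 J proteins of vesicles moved in opposite directions. Dnajc13 (chr9:104151597-104263608, minus strand), which recruits Hsp70 to endosomes, had RNA of 18.2/22.8 RPKM (0 h), 19.5/19.2 (1 h), 22.5/22.9 (2 h), 46.5/46.1 (4 h) and 53.3/54.4 (6 h), and the groups separated cleanly between 2 and 4 h. Its RNA rose by 1.15 (SE 0.12) at 4 h and 1.36 (SE 0.12, adjusted p = 2.38e-08) at 6 h. Its RPF was 37.2 and 42.02 RPKM at 6 h, against 14.6 and 17.5 RPKM at 0 h, a change of 1.25 (SE 0.44, adjusted p = 0.0368). The change was not called without 0 h A, 0 h B, 4 h A, 4 h B, 6 h A or 6 h B (adjusted p of 0.0632 to 0.15) and was 1.77 (adjusted p = 0.00842) with centred libraries. Dnajc5, the cysteine string protein of secretory vesicles, fell in RNA, with a change of -0.65 (SE 0.11, adjusted p = 7.86e-05) at 4 h and -0.57 (SE 0.11) at 6 h. Its RPF fell, with a change of -1.32 (SE 0.41, adjusted p = 0.0301) at 4 h, lost without 0 h A, 4 h A or 4 h B (adjusted p of 0.103 to 0.193) and, with centring, at -1.0 (adjusted p = 0.0794).

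**Figure D2:**
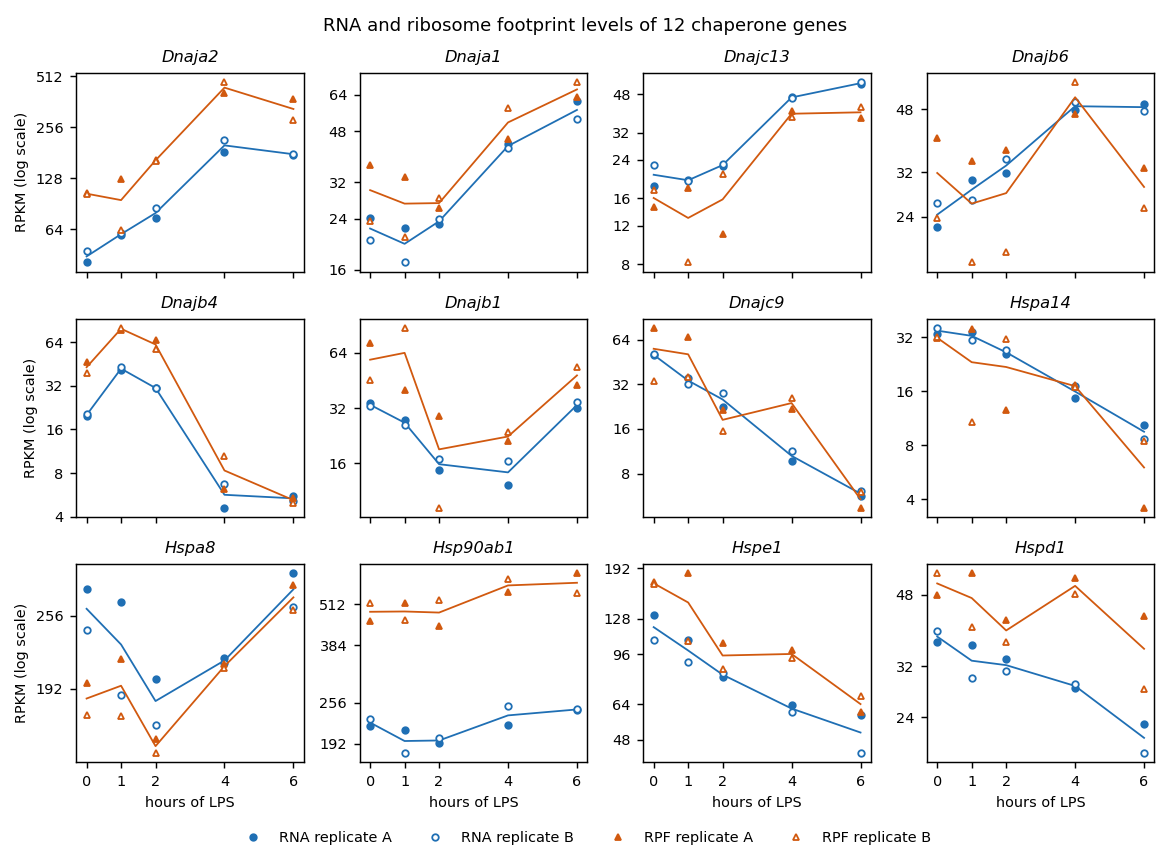
RPKM (log scale) of 12 members at 0, 1, 2, 4 and 6 h of LPS; blue circles are RNA and orange triangles RPF, filled for replicate A and open for replicate B, and lines join the means of the 2 replicates. RNA of Dnaja2 stands at 176 and 179 RPKM at 6 h, against 40.7 and 47.6 RPKM at 0 h, and RNA of Dnajc9 at 5.60 and 6.11 RPKM, against 50.1 and 50.9 RPKM.

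Among the Hsp70 and Hsp110 proteins of the cytosol, 0 of 3 tested rose in RNA at 6 h and 2 fell, and of 4 tested for RPF, 1 rose and 2 fell. Hspa8, the constitutive Hsc70 and the most abundant of them, had RNA of 284/241 RPKM (0 h), 270.0/187 (1 h), 199.6/166 (2 h), 216/213 (4 h) and 303/265 (6 h), with the 2 h libraries below both 0 h libraries and the 6 h libraries overlapping them. The change of -0.52 (SE 0.16) at 2 h was lost without 0 h A or 2 h B (adjusted p of 0.0889 to 0.112), and at 6 h the RNA change was 0.11 (SE 0.16, adjusted p = 0.525). Its RPF was 196/173 RPKM (0 h), 216/172 (1 h), 157/149 (2 h), 212/208 (4 h) and 288/262 (6 h), with the 6 h pair above every other library. The RPF change at 6 h was 0.57 (SE 0.18, adjusted p = 0.0274), lost without 0 h A, 0 h B, 4 h A, 4 h B, 6 h A or 6 h B (adjusted p of 0.0534 to 0.132) and 1.09 (adjusted p = 0.000893) with centring.

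Hspa14, which pairs with Dnajc2 on the ribosome in human cells, had RNA of 33.5/36.3 RPKM (0 h), 34.3/31.03 (1 h), 25.8/27.1 (2 h), 14.7/17.2 (4 h) and 10.4/8.68 (6 h) and fell without overlap from 2 h on. The change was -1.08 (SE 0.12) at 4 h and -1.77 (SE 0.12, adjusted p = 1.75e-09) at 6 h, and its 2 h change of -0.39 was lost without 0 h B or 2 h A (adjusted p of 0.0803 to 0.0915). RPF was 3.59 and 8.47 RPKM at 6 h, against 31.7 and 32.02 RPKM at 0 h, a change of -2.32 (SE 0.61, adjusted p = 0.0109) that was lost without 0 h A, 0 h B or 6 h A (adjusted p of 0.0539 to 0.0787) and was -1.80 (adjusted p = 0.0385) with centring. Hsph1, an Hsp110 exchange factor with the heat shock element shown above, was tested for RPF only, at 3.74 and 8.49 RPKM at 6 h, against 18.2 and 27.05 RPKM at 0 h. The RPF change of -1.79 (SE 0.45, adjusted p = 0.00893) was lost without 0 h B or 6 h A (adjusted p of 0.0659 to 0.0708) and was -1.27 (adjusted p = 0.0512) with centring. Its RNA, below the filter, was 4.33 and 5.002 RPKM at 6 h and 11.2 and 12.2 RPKM at 0 h, with no overlap. The inducible Hsp70 genes Hspa1a and Hspa1b and the small heat shock protein Hspb1 were not analysed here.

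The regulators of Hsp70 gave 0 rises and 2 falls of 3 tested in RNA at 6 h, and 0 rises and 1 fall of 4 in RPF. Bag1, a nucleotide exchange factor and the most abundant of the group in RNA, had RNA of 91.97/97.9 RPKM (0 h), 86.8/78.7 (1 h), 74.2/71.7 (2 h), 55.3/68.2 (4 h) and 55.3/56.3 (6 h), with the 4 and 6 h libraries below all others. It fell at 6 h, with a change of -0.75 (SE 0.12, adjusted p = 2.49e-05). Bag3, which links Hsp70 to autophagy and is induced by heat, was tested for RPF only, with 51.9/35.7 RPKM (0 h), 37.5/14.9 (1 h), 23.3/24.2 (2 h), 22.4/23.8 (4 h) and 32.5/39.1 (6 h), and no change was called against 0 h. Hspbp1 fell in RNA, with a change of -0.51 (SE 0.14) at 6 h, lost without 0 h A (adjusted p = 0.102) and -0.29 (adjusted p = 0.0655) with centring. Bag6, which handles misplaced membrane proteins, ranged between 24.9 and 33.0 RPKM of RNA over the 10 libraries.

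The 2 cytosolic Hsp90 genes gave 0 calls in RNA or RPF at any time against 0 h (1 at an unadjusted p under 0.05 in RNA at 6 h by limma, as for 81.8% of all genes). Hsp90ab1, the constitutive form, had RPF of 455/517 RPKM (0 h), 515/459 (1 h), 438/528 (2 h), 558/612 (4 h) and 639/553 (6 h), with the 4 and 6 h libraries above both 0 h libraries. Its change at 6 h was 0.29 (SE 0.16, adjusted p = 0.152). With centring it was called higher, at 0.81 (adjusted p = 0.00175) for RPF and 0.35 (adjusted p = 0.00536) for RNA at 6 h. The inducible Hsp90aa1 had RPF of 33.1 and 38.9 RPKM at 6 h and 56.8 and 50.1 RPKM at 0 h, a change of -0.56 (SE 0.29, adjusted p = 0.131).

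The 8 subunits of the CCT ring were alike in level and moved little. At 0 h their RNA ran up to 153 and 162 RPKM for Tcp1, with the lowest at 84.1 and 87.7 RPKM for Cct3. At 4 h 1 subunit was higher in RNA and 0 lower, and at 6 h 1 was higher and 5 lower, with a median of -0.32 that stayed below 0 (-0.10) with centring. RPF was called for 0 of 8 at either time (1 at 4 h and 0 at 6 h at an unadjusted p under 0.05 by limma, beside 46.3% and 56.4% of all genes). The median RPF change at 6 h of -0.20 turned to 0.32 with centring. Cct3 was the exception in direction. Its RNA was 84.1/87.7 RPKM (0 h), 83.7/73.7 (1 h), 85.6/89.1 (2 h), 131/133 (4 h) and 122/107 (6 h), with the 4 and 6 h libraries above the rest. It rose by 0.61 (SE 0.11, adjusted p = 0.000159) at 4 h and 0.41 (SE 0.11, adjusted p = 0.00357) at 6 h, the second call lost without 6 h A (adjusted p = 0.0656). Its RPF was 159.9 and 192 RPKM at 6 h and 122 and 123 RPKM at 0 h, 0.52 (SE 0.25, adjusted p = 0.107), and 1.03 (adjusted p = 0.0068) with centring. Tcp1, the most abundant subunit, had the lowest RNA change at 6 h, -0.45 (SE 0.12, adjusted p = 0.00194), and Cct5 fell, with a change of -0.44 (SE 0.12). The falls of Cct2, Cct4 and Cct6a, between -0.38 and -0.30, were each lost without 0 h B or 6 h A, and those of Cct2 and Cct4 also without 6 h B (adjusted p of 0.0556 to 0.143 over these fits). All 3 were lost with centring. RefSeq names 1 related sequence each of Cct3 and Tcp1, and the effect of the paper's quality cutoff on reads shared with them was not checked.

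The mitochondrial members fell together in RNA at 6 h. All 7 tested were then called lower, beside 54.9% of all genes, with a median change of -1.08 (-0.86 with centring, where 6 of 7 were called). At 4 h 5 of 7 were called lower, beside 51.7% of all genes, and with centring 5 were lower and 1 was higher. RPF fell for 2 of 7 at 6 h, beside 36.0% of all genes, with a median of -0.81. With centring it fell for 1 of 7, beside 17.9% of all genes, and the median was -0.29. Hspe1, the Hsp10 lid, had RNA of 131/107 RPKM (0 h), 107/90.3 (1 h), 79.98/82.6 (2 h), 63.5/60.1 (4 h) and 58.8/43.1 (6 h), the 4 and 6 h libraries lying below every earlier one. It fell, with a change of -0.93 (SE 0.15) at 4 h and -1.22 (SE 0.15, adjusted p = 1.33e-06) at 6 h. Its RPF was 171/169 RPKM (0 h), 185/106 (1 h), 105/85.04 (2 h), 99.5/92.8 (4 h) and 60.01/68.2 (6 h), and the 6 h pair (10 and 54 reads) lay below every other library. RPF fell, with a change of -1.40 (SE 0.27, adjusted p = 0.00235) at 6 h, a call that held with each library left out and at -0.88 (adjusted p = 0.0292) with centring.

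Hspd1, the Hsp60 barrel, whose promoter window holds the same stretch, had a smaller RNA change. Its RNA was 36.7/39.01 RPKM (0 h), 36.1/29.97 (1 h), 33.3/31.1 (2 h), 28.3/28.9 (4 h) and 23.1/19.6 (6 h), with a change of -0.39 (SE 0.12) at 4 h and -0.80 (SE 0.12, adjusted p = 1.65e-05) at 6 h. RPF of Hspd1 was 42.4 and 28.2 RPKM at 6 h and 47.97 and 54.2 RPKM at 0 h, a change of -0.55 (SE 0.30) that was not called (adjusted p = 0.157). RefSeq names 7 pseudogenes or related sequences of Hspe1, 5 of Hspd1, 2 of Hspa9 and 1 of Dnajc19, and reads shared with them make these 4 values uncertain. Dnaja3, the J protein of the matrix, fell in RNA, with a change of -1.11 (SE 0.12, adjusted p = 6.05e-07) at 6 h. It had 10.1 and 10.2 RPKM at 6 h and 23.2 and 22.9 RPKM at 0 h. In RPF it changed by -1.07 (SE 0.35, adjusted p = 0.0279), a call lost without 0 h A, 0 h B, 4 h A, 4 h B or 6 h B (adjusted p of 0.0527 to 0.151) and -0.56 (adjusted p = 0.228) with centring. Dnajc19 and Dnajc15, J proteins of the import motor at the inner membrane, fell in RNA, with a change of -1.08 (SE 0.12) and -1.08 (SE 0.15) at 6 h. Hspa9, the matrix Hsp70, fell, with a change of -0.51 (SE 0.12).

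The ER members were taken in 2 kinds. Of the 5 Pdia and lectin chaperones, RNA fell for 2 at 4 h and 1 at 6 h and rose for 0, while RPF fell for 3 at 4 h and 3 at 6 h. The median RPF change was -0.60 at 4 h and -0.48 at 6 h, beside -0.50 and -0.66 over all genes, and with centring it was -0.27 and 0.04 with 0 and 1 of the 5 called. Calr, the calcium-binding lectin chaperone and the member with the highest RNA and RPF, had RPF of 1640.1/1992 RPKM (0 h), 1599.9/1687 (1 h), 1260.0/1460.1 (2 h), 1284/1112 (4 h) and 1316/1202 (6 h), with every library from 2 h on below both 0 h libraries. The RPF change was -0.60 (SE 0.14, adjusted p = 0.00905) at 4 h, lost without 0 h B or 4 h B (adjusted p of 0.0745 to 0.0885) and with centring, at -0.27 (adjusted p = 0.212). At 6 h it was -0.52 (SE 0.14, adjusted p = 0.0122), lost without 0 h B or 6 h B (adjusted p of 0.0781 to 0.095) and -0.01 (adjusted p = 0.979) with centring. RNA of Calr was 418 and 438 RPKM at 6 h and 459.9 and 543 RPKM at 0 h, a change of -0.22 (SE 0.15, adjusted p = 0.191). Canx, its membrane-bound relative, had RNA of 220.3 and 239 RPKM at 6 h and 202 and 252 RPKM at 0 h, overlapping groups. Its RPF was 429.6 and 470.1 RPKM at 6 h and 613 and 549.6 RPKM at 0 h, a change of -0.37 (SE 0.17) that was not called.

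Pdia4, a disulfide isomerase, was the 1 member of this kind that fell in both assays at 6 h. Its RNA was 58.1/72.9 RPKM (0 h), 49.7/61.2 (1 h), 37.4/53.6 (2 h), 44.95/40.4 (4 h) and 36.1/38.4 (6 h), with a change of -0.79 (SE 0.16, adjusted p = 0.00031) at 6 h. Its RPF was 181/139 RPKM (0 h), 124/151 (1 h), 106/114 (2 h), 88.2/77.4 (4 h) and 78.6/62.9 (6 h). The RPF change was -0.93 (SE 0.23, adjusted p = 0.012) at 4 h, lost without 0 h A, 4 h A or 4 h B (adjusted p of 0.053 to 0.1) and with centring, at -0.61 (adjusted p = 0.075). At 6 h it was -1.16 (SE 0.23, adjusted p = 0.00279), which held with each library left out and at -0.65 (adjusted p = 0.0497) with centring. Pdia3, the isomerase that works with Calr and Canx, fell in RPF, with a change of -0.61 (SE 0.17, adjusted p = 0.0167) at 4 h. That call was lost without 0 h A, 0 h B or 4 h B (adjusted p of 0.0697 to 0.135) and with centring, at -0.29 (adjusted p = 0.229). The 6 h change was -0.48 (SE 0.17, adjusted p = 0.0355). It was lost without 0 h A, 0 h B, 4 h A, 4 h B, 6 h A or 6 h B (adjusted p of 0.0505 to 0.128) and turned to 0.04 (adjusted p = 0.881) with centring.

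Of the 8 tested Hsp70 and J proteins of the ER, RNA rose for 1 and fell for 4 at 6 h, and RPF rose for 0 and fell for 2. The median changes of this kind at 6 h were -0.27 for RNA and -0.35 for RPF, beside -0.16 and -0.48 for the Pdia and lectin chaperones. Dnajc1 (chr2:18205634-18394099, minus strand), a J protein of the ER membrane that binds ribosomes, was the 1 that rose. Its RNA was 6.67/8.73 RPKM (0 h), 6.59/7.69 (1 h), 7.84/9.03 (2 h), 12.5/14.4 (4 h) and 13.99/15.9 (6 h), with changes of 0.74 (SE 0.14) at 4 h and 0.88 (SE 0.14) at 6 h. It passed the RNA filter, at a mean of 10.3 RPKM, only through its 4 and 6 h libraries. Its calls at these times and from 2 to 4 h therefore carry no weight of their own. RPF of Dnajc1 was 25.4 and 32.1 RPKM at 6 h and 29.6 and 21.1 RPKM at 0 h, overlapping groups. Dnajb14, an ER membrane J protein facing the cytosol, had RNA of 24.3/32.6 RPKM (0 h), 23.1/24.9 (1 h), 14.5/18.6 (2 h), 9.34/9.84 (4 h) and 11.96/11.8 (6 h). It fell, with a change of -1.46 (SE 0.14, adjusted p = 1.72e-07) at 4 h and -1.18 (SE 0.14) at 6 h. Its RPF was 9.63 and 9.30 RPKM at 4 h, against 50.7 and 37.6 RPKM at 0 h, a change of -2.09 (SE 0.59, adjusted p = 0.0205) lost without 0 h A, 0 h B, 4 h A or 4 h B (adjusted p of 0.0621 to 0.121) and at -1.77 (adjusted p = 0.0427) with centring. Dnajc3, an Hspa5 partner that carries the ER stress element shown above, fell in RNA, with a change of -0.98 (SE 0.14) at 6 h. In RPF it changed by -1.29 (SE 0.37, adjusted p = 0.0173), a call lost without 0 h A, 0 h B or 6 h B (adjusted p of 0.0628 to 0.129) and -0.78 (adjusted p = 0.128) with centring. Dnajb11, the most abundant of the kind, stood at 80.98 and 84.4 RPKM of RNA at 6 h and 74.5 and 87.6 RPKM at 0 h, and no change of it was called.

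The summed levels put these changes in proportion. The 5 Pdia and lectin chaperones held 43.1 and 43.9% of the summed member RPF RPKM at 6 h, against 48.1 and 50.8% at 0 h, or 2781 and 2717 RPKM against 3739 and 4008 RPKM. Cytosolic J proteins held 9.95 and 9.23% at 6 h, against 7.02 and 5.65% at 0 h, and the 2 Hsp90 genes 10.4 and 9.57%, against 6.59 and 7.18%. Mitochondrial members held 5.10 and 3.92% at 6 h, against 6.54 and 7.11% at 0 h. None of these 4 pairs of groups overlapped, but this was the more common outcome among the compartments. The CCT ring held 17.1 and 19.2% at 6 h, against 16.9 and 15.8% at 0 h. Cytosolic Hsp70 and Hsp110 proteins held 5.56 and 5.57%, against 4.45 and 4.12%. The Hsp70 and J proteins of the ER held 5.23 and 5.11%, against 6.05 and 6.13%. Only the shares of the Hsp70 regulators and the vesicle J proteins overlapped. The higher J protein share at 6 h rested on Dnaja2. Without it the group summed to 268 and 289 RPKM at 6 h, against 441 and 344 RPKM at 0 h, and its share was 4.16 and 4.67% at 6 h and 5.67 and 4.35% at 0 h, overlapping groups. In RNA the shares of the Pdia and lectin group did overlap, at 28.8 and 30.4% at 6 h and 28.0 and 31.0% at 0 h. Those of the cytosolic J proteins were 11.5 and 11.7% at 6 h against 7.51 and 7.74% at 0 h, and those of the mitochondrial members 6.19 and 5.65% against 10.5 and 9.34%. Without Dnaja2, the J proteins held 6.5 and 6.55% of RNA at 6 h and 6.44 and 6.58% at 0 h. With 2 libraries at each time the smallest two-sided exact permutation p is 0.333, and these shares were not tested.

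**Figure D3:**
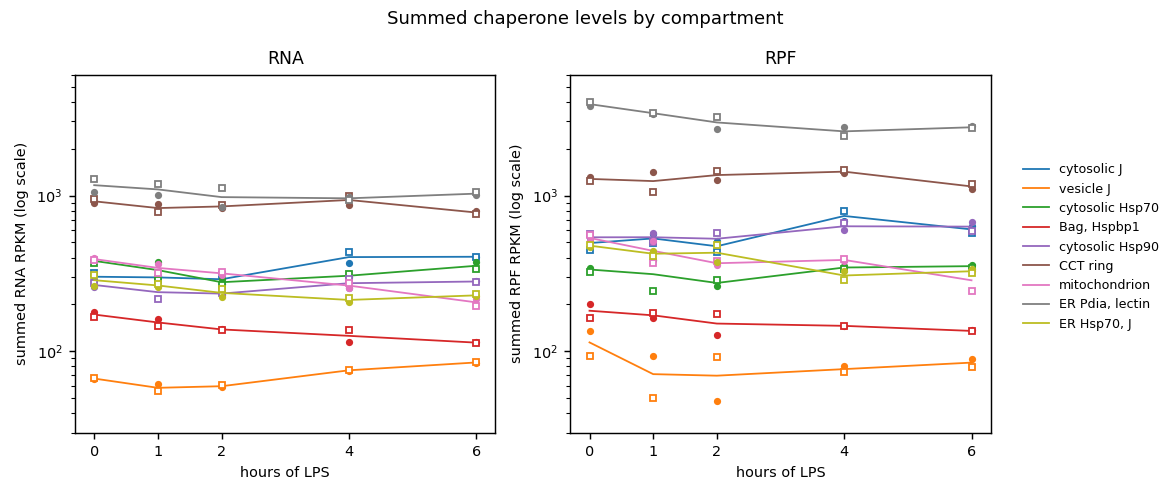
Summed RPKM (log scale) of the members of each compartment at 0, 1, 2, 4 and 6 h of LPS, RNA on the left and RPF on the right; filled circles are replicate A, open squares replicate B, and lines join their means. The summed RPF of the ER Pdia and lectin chaperones is the highest of all at each time, at 2781 and 2717 RPKM at 6 h and 3739 and 4008 RPKM at 0 h.

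TE was compared to see whether footprints and RNA moved apart. TE was called for 0 of 46 members and 0 of 4621 genes at any time against 0 h by limma. At an unadjusted p under 0.05 the members gave 1, 0, 2 and 2 at 1, 2, 4 and 6 h and all genes 6.6, 6.86, 7.34 and 12.1%. TE of replicates A and B differed by an SD of 0.36 to 0.93 over genes on the log2 scale. A change of TE or RPF that was not called is not shown to be absent. Groups did not overlap for 14 members with lower and 4 with higher TE at 6 h than at 0 h, beside 38.6 and 7.77% of all genes. At 4 h the counts were 11 lower and 12 higher, beside 37.9 and 9.2% of all genes. The median TE of the members was 1.45 and 1.41 at 6 h and 1.65 and 1.41 at 0 h in replicates A and B, while that of all genes was 1.41 and 1.40 at 6 h and 1.72 and 1.64 at 0 h.

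The smallest p for a member was that of Dnajb4, whose TE change at 6 h was -1.09 (SE 0.23, adjusted p = 0.229), with an unadjusted p of 0.00122. Over the libraries left out in turn the adjusted p of that change was 0.171 to 0.524. The other 3 with the smallest p were Dnajc24 at 1 h with 1.51 (SE 0.55, adjusted p = 0.689), Dnajc9 at 4 h with 1.09 (SE 0.45, adjusted p = 0.658) and Dnajb6 at 6 h with -1.07 (SE 0.46, adjusted p = 0.412). The Dnajc24 value was called without replicate A at 1 h (adjusted p = 0.00914), and rests on replicate B, where its RPF was 98.3 RPKM, against 26.7 RPKM in replicate A.

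The 5 Pdia and lectin chaperones had a median TE of 2.18 and 2.15 at 6 h and 3.11 and 2.31 at 0 h, above the all-gene medians in both replicates. Pdia3 had the highest mean TE of the members, 4.19 at 0 h, above 96.1% of all tested genes, and Calr stood above 93.5%. Bag1 had the lowest, 0.28 at 0 h, above 0.346% of all genes. Hspa8, with high RNA, stood above 22.3% of all genes at 6 h and 6.08% at 0 h, and Hsp90ab1 above 88.0% and 69.4%. These ranks compare RPKM that may be scaled by different lengths in the 2 assays, since the RPF steps match the coding length and the length behind the RNA values is not given in the sources used here.

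**Figure D4:**
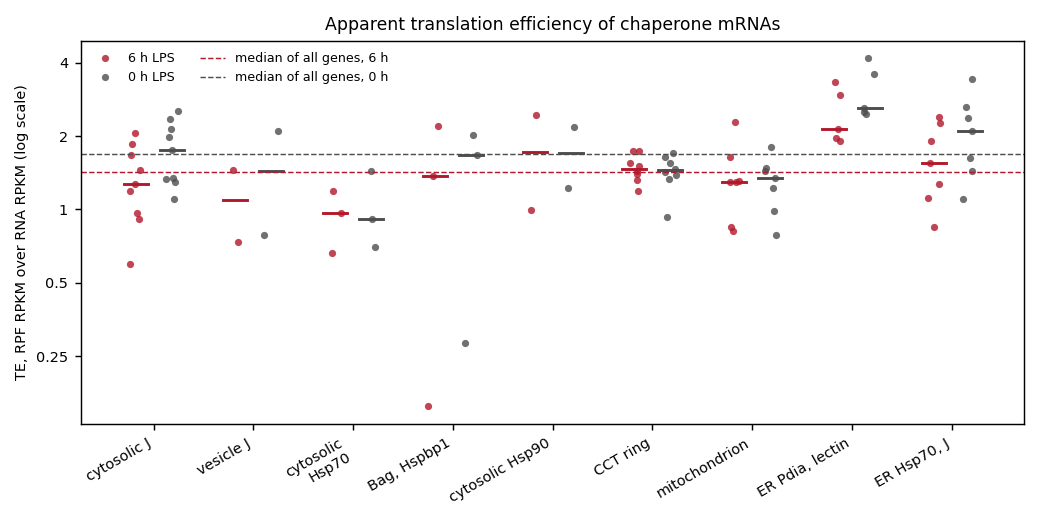
Mean TE of 2 replicates (RPF RPKM over RNA RPKM, log scale) of each of 46 members by compartment, at 6 h of LPS (red) and at 0 h (grey); short bars are the medians of a compartment and dashed lines the medians of all 4621 genes. The ER Pdia and lectin chaperones lie above both dashed lines at both times, and Bag1 is the lowest point at 0.16 at 6 h and 0.28 at 0 h.

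Partners of the members that the name rule leaves out were counted in the same fits. For each list that follows, the shares of all genes at 6 h were 26.1% higher and 54.9% lower in RNA. In RPF they were 12.8% and 36.0%. The all-gene median changes were -0.41 in RNA and -0.66 in RPF. Of 14 tested co-chaperones of Hsp90 and Hsp70, RNA rose for 2 and fell for 7 at 6 h, with a median of -0.31. Stip1, which bridges Hsp70 and Hsp90, changed by 0.60 and Cdc37, which brings kinases to Hsp90, by 0.40. Stub1, a ubiquitin ligase for chaperone clients, changed by -1.23 and the immunophilin Fkbp4 by -1.23. RPF rose for 0 and fell for 7 of 16. Prefoldin, which delivers actin and tubulin to the CCT ring, fell with its cofactors for 6 of 7 in RNA at 6 h (median -0.75) and 3 of 8 in RPF, led by Pfdn5 at -0.97 and Pfdn1 at -0.77 in RNA.

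Of 23 tested ER folding genes outside the rule, RNA rose for 4 and fell for 11 at 6 h, with a median of -0.19, and RPF rose for 1 and fell for 12 of 24, with a median of -0.61. Hspa5, the Hsp70 of the ER, changed by 1.08 in RNA and Prkcsh, a subunit of a glucosidase, by 0.67. Erp29 changed by -2.03 and Sdf2l1 by -1.20. Of 6 tested mitochondrial chaperones and proteases outside the rule, RNA rose for 1 and fell for 3, and RPF fell for 3 of 7. Yme1l1, a protease of the inner membrane, changed by 0.48 in RNA, the matrix protease subunit Clpp by -1.38 and Grpel1, the exchange factor of Hspa9, by -0.57.

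Zfp36 binds AU-rich elements in 3′ UTRs and lowers the output of the bound mRNA, and the CLIP-seq peaks list where it was found at 4 h. The peak list named 280 mRNAs, among them 133 genes of the expression table (2.08%), and 1 of the 55 members. That member was Dnajc1, with a peak at chr2:18215351-18215400 (mm10, minus strand) at 21.15-fold over input, rank 101 of the 280 peaks, whose median was 14.965-fold. The position lies in the 3′ UTR of 1 of the 2 RefSeq mRNAs of Dnajc1 and in an intron of, or beyond, the other, and holds 0 copies of UAUUUAUU within 50 bases. The RNA of Dnajc1 was 12.5 and 14.4 RPKM at 4 h, the time of the CLIP-seq, against 6.67 and 8.73 RPKM at 0 h.

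The octamer UAUUUAUU itself was rare in the members, at 2 of 55 3′ UTRs (3.64%), beside 15.7% of 6389 genes of the table. The 3′ UTRs of the members had a median of 623 bases, against 1024 bases for all genes. Both sites are shown because only these members hold the full element, with 8 bases on each side and the octamer in capitals:

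Dnajb6, chr5:29785656-29785679, plus strand: ucuuuccuUAUUUAUUguucaacu

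Dnajc11, chr4:151981779-151981802, plus strand: uucuguaaUAUUUAUUuuucuuuu

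Neither had a peak in the list. Dnajb6 RNA had risen at 4 h (its values are given with the cytosolic J proteins). RNA of Dnajc11, a mitochondrial outer membrane J protein, was 20.6 and 26.1 RPKM at 4 h and 20.97 and 20.8 RPKM at 0 h, overlapping groups. At 6 h it fell, with a change of -0.40 (SE 0.12, adjusted p = 0.00554), at -0.18 (adjusted p = 0.07) with centring.

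4 members passed no filter. Their mean RNA and RPF were 9.35 and 9.35 RPKM for Bag5, 5.14 and 5.24 RPKM for Dnajc21, 6.88 and 7.03 RPKM for Hspa4l and 4.24 and 8.02 RPKM for Dnajc30. Hspa4l, an Hsp110 protein, was at 9.81 and 11.5 RPKM of RNA at 4 h and 5.74 and 6.62 RPKM at 0 h, with no overlap and no test.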

How the data were processed

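RNA-seq and Ribo-seq of BMDMs at 5 times of LPS, with 2 replicates each, were analysed together with a Zfp36 CLIP-seq peak list. The authors trimmed reads, removed ribosomal, transfer and mitochondrial RNA with Bowtie 1.1.1, mapped with TopHat 2.1.1 to mm10, counted with HTSeq and deposited RPKM of RNA and RPF for each library. The RPKM table holds genes below the expression threshold that the study's methods state. For CLIP-seq, the authors deposited peaks of 2 libraries together over the input, with the Piranha p-value and fold over input of each peak, after mapping with STAR and merging with HOMER. A second deposited table with genes chosen by the authors' own TE test was not used.

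The 55 members were found by name, and compartments and partner lists were set from textbook knowledge. The members and lists were chosen with earlier results of these data known. RPKM are not counts, so log2(RPKM + 1), and the log2 ratio of RPF + 1 to RNA + 1 for TE, were fitted with limma 3.58.1 (R 4.3.3, eBayes with trend, 5 residual degrees of freedom) over all genes with a mean of at least 10 RPKM, in both assays for TE, and p-values were adjusted by Benjamini-Hochberg over 4805 genes for RNA, 5277 for RPF and 4621 for TE. All 10 libraries of an assay shared 1 estimate of the spread. The study's Babel test of TE needs counts and was not run. The fit was tested on simulated data, where it found smaller changes in RNA than in RPF or TE, so that a change not called in RPF or TE is not shown to be absent. Tables and figures were made with Python 3.11.15, numpy 2.4.6, pandas 2.3.3, pysam 0.24.0 and matplotlib 3.10.9. All 55 members were matched to RefSeq, and sequences and gene coordinates are those of RefSeq on GRCm38.p6, the assembly that mm10 names.

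Members named with values were up to 6 higher and 6 lower by RNA and 4 and 4 by RPF with the largest called change against 0 h in the same direction in both replicates, the 4 with the smallest p for TE, the most abundant of each compartment, a list of inducible and constitutive chaperones, the CCT subunits, members with a CLIP-seq peak and, from each partner list, up to 2 higher and 2 lower. Dnajc2, Dnajc3, Dnajc7, Dnajc10, Dnajc11, Dnajc15, Dnajc19, Dnajc21, Dnajc30, Dnaja3, Hspa4l, Hspa9, Hspbp1, Bag5, Bag6, Pdia3, Pdia4 and Pdia6 were named after their values were seen. Alternatives were 0.1 or 5 RPKM as the added value, no filter, over 10 RPKM in every library of both assays, centring on the median, a replicate block, each library left out, and, chosen after seeing the data, leaving out 1 h replicate B and 6 h replicate A.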

Additional observations from a re-analysis of the deposited data

Results flagged for a closer look

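One signal lay in data that the comparisons do not use. Dnajb5, a J protein that the name rule would take but that has no row in the expression table, had a Zfp36 CLIP-seq peak at chr4:42954301-42954350 (mm10), with 25.51-fold enrichment over input. The peak lies in an intron or outside the RefSeq mRNAs of Dnajb5 and holds 0 copies of UAUUUAUU within 50 bases. With RNA and RPF of Dnajb5 not analysed here, nothing can be set beside it.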

How the results depend on the processing

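Of 127 member changes, tried in 2107 combinations with an alternative setting, 1912 kept their direction and their side of the threshold, 193 kept only the direction and 1 gained a call. The RPF change of Pdia3 at 6 h against 0 h was the 1 that turned, to 0.0363 with centring. Median centring gave 5 members higher and 2 lower in RPF at 4 h and 5 lower in RPF at 6 h, and between adjacent times, among the named members (9 higher and 15 lower in RNA, 1 higher and 2 lower in RPF), 15 higher in RNA and 2 higher and 1 lower in RPF. The filter at over 10 RPKM in every library left 36 members, with 1 higher and 1 lower in RNA at 1 h, 8 lower in RNA at 2 h, 9 lower in RNA at 4 h, 8 lower in RPF at 6 h and, between adjacent times, 4 lower in RNA and 0 lower in RPF. With 5 RPKM added, or with no filter, RPF at 4 h was higher for 2 members and between adjacent times lower for 1. Without 1 h replicate B and 6 h replicate A, RNA at 1 h gave 1 higher and 0 lower, RPF at 2 h 1 higher and 4 lower, RPF at 4 h 3 higher and 12 lower, RPF at 6 h 19 lower, and between adjacent times RPF gave 2 higher and 1 lower. The 2-unit heat shock element (GAA and TTC in either order, any 2 bases between) was found at 11 members (15.1% of all promoter windows), against 4 with 3 units. The cause of these shifts was not tested, except that the stricter filter tests fewer genes.

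With each library left out in turn, RNA gave 1 to 2 members higher and 0 to 4 lower at 1 h, 2 to 3 higher and 8 to 16 lower at 2 h, 6 to 7 higher and 18 to 21 lower at 4 h and 6 to 7 higher and 21 to 28 lower at 6 h. RPF gave 0 to 1 higher and 0 to 6 lower at 1 h, 0 to 1 higher and 0 to 5 lower at 2 h, 1 to 3 higher and 1 to 11 lower at 4 h and 1 to 5 higher and 4 to 17 lower at 6 h. TE gave 0 to 1 higher and 0 to 1 lower at 1 h and 0 at the other times. Between adjacent times RNA gave 8 to 10 higher and 9 to 16 lower, and RPF 0 to 5 higher and 1 to 4 lower.

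The letters A and B share no stated origin. Differences of A and B correlated between times at 0.0906 to 0.542 in RNA and -0.0224 to 0.0173 in RPF, over 0.1 for 9 of 10 pairs of times in RNA and for 0 of 10 in RPF. As 1 RNA pair and all RPF pairs were under 0.1, the letters were not taken as pairs, and the RNA values hint at a shared A and B difference. With the replicate block, RNA gave 2 higher and 3 lower (1 h), 3 and 20 (2 h), 6 and 22 (4 h), 7 and 28 (6 h), and of all genes 846 were lower at 1 h, against 438 without the block. RPF gave 1 and 7 (4 h) and 4 and 11 (6 h), with the RPF falls of Dnajc5 and Hspbp1 at 6 h lost. Depth limits the lowest RPF values, with 2 and 3 reads behind the 6 h replicate A values of Dnajc9 and Dnajc24.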
